A study of Mus musculus with 42 samples.

Results

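Endothelin, prostacyclin and other vasoactive genes were followed as 8 gene rows of the deposited expression table (Edn1, Ednrb, Ece1, Ace, Ptgs1, Ptgs2, Ptgis and Nppc), out of 21674 genes read, in all 42 libraries. The genes were listed by name and all 8 were found. Partial carotid ligation ties off branches of the left carotid artery and leaves it with low, disturbed flow, while the artery on the other side carries high flow. Intimal RNA was flushed from the arteries of male C57BL/6J mice (6 to 7 weeks old) at 48 hr after surgery and pooled from 3 to 5 flushes. The untreated mice gave 3 pools each of low flow, contralateral high flow and sham-operated (normal flow) artery. Treated mice gave 2 low-flow libraries each after anti-GPIba (depletes platelets), anti-Gr1 (depletes granulocytes), clodronate liposomes (deplete macrophages), IgG or PBS liposomes, and 2 high-flow libraries each after IgG or PBS liposomes. At 7 days, mice of a C57 background (2 to 7 months old) with an endothelial deletion of Rbfox2 (Rbfox2 EC-KO, made by the endothelial driver Cdh5(PAC)-CreERT2 on 2 copies of Rbfox2 lox) and littermates without Cre gave 3 low-flow and 2 high-flow libraries each, and all of these mice carried Rosa26-mTmG and were Rbfox2 lox/lox. Cultured, static aortic endothelial cells gave 7 libraries, 1 per condition: a single TetOn-SV40 immortalized line left alone or given 10% plasma, platelets with macrophages, or all of these for 48 hr, primary cells sorted for endothelial markers from Rbfox2 control and Rbfox2 EC-KO mice after 7 days, and eGFP+ cells after 5 days. The other 2 libraries were single low-flow pools after PBS or clodronate liposomes. Nothing in the labels says that pools of a group share no mice, so the tests measure the spread between these pools.

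Endothelial cells set the tone of the vessel wall with short-range signals. Edn1 encodes the precursor of endothelin-1, a strong vasoconstrictor peptide, which endothelin-converting enzyme (Ece1) cuts to its active form and which the receptor Ednrb binds on endothelial cells. Ace, angiotensin-converting enzyme, makes angiotensin II and breaks down bradykinin. The cyclooxygenases Ptgs1 (COX-1) and Ptgs2 (COX-2, the inducible form) turn arachidonic acid into prostaglandin H2, from which prostacyclin synthase (Ptgis) makes the vasodilator prostacyclin. Nppc encodes C-type natriuretic peptide, another relaxing signal. Shear stress is known to hold Edn1 down and to raise prostacyclin output, partly through the transcription factors KLF2 and KLF4.

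In NCBIM37 (mm9) the members lie at chr13:42396639-42403358 (Edn1, plus strand), chr14:104213842-104243390 (Ednrb, minus), chr4:137418152-137521144 (Ece1, plus), chr11:105829259-105851278 (Ace, plus), chr2:36085946-36107792 (Ptgs1, plus), chr1:151947254-151955140 (Ptgs2, plus), chr2:167017305-167066104 (Ptgis, minus) and chr1:88562866-88567147 (Nppc, minus). Exons of Ace share 295 bases with Gm11651 and those of Ptgis 156 bases with 1110018N20Rik, both annotated on the opposite strand. The options the methods give for RSEM set none for strand, so reads of these partners cannot be told apart there. Promoter sequences (RefSeq, GRCm38.p6, from 250 bases before to 50 after the transcription start) were matched for 7 of the 8 members. The 4 sequences that follow belong to the members that differed between low and high flow, 2 higher (Edn1, Ptgs2) and 2 lower (Ptgs1, Ace), with their plus-strand windows at chr13:42301226-42301525, chr1:150099781-150100080, chr2:36230176-36230475 and chr11:105967698-105967997 (the first of 2 Ace start sites).
Edn1: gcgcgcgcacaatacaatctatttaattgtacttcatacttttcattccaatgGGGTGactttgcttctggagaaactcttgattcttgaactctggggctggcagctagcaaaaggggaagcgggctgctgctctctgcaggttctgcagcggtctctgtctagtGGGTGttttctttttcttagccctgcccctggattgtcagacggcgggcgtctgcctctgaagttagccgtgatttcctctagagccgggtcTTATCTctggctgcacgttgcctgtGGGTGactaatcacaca
Ptgs2: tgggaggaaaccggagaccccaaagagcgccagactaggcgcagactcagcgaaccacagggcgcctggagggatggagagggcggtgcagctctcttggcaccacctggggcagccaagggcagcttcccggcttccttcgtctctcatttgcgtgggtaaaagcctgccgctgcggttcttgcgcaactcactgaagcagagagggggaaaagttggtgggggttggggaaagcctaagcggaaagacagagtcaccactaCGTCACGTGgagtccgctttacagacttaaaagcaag
Ptgs1: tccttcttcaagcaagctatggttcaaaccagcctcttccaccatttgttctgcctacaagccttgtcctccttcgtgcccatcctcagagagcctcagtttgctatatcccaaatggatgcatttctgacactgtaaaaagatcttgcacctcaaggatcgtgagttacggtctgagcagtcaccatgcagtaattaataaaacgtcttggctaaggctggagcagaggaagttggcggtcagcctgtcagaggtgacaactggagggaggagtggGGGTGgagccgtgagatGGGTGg
Ace: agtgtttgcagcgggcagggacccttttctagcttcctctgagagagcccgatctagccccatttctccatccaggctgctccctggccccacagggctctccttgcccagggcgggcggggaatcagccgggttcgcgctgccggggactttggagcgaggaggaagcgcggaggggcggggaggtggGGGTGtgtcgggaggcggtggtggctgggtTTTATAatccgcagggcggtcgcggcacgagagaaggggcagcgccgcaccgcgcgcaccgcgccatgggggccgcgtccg
Capitals mark matches, on either strand, to short motifs. CACCC is the core that Krüppel-like factors bind. AGATAA is read by GATA factors, and TATAAA is the TATA box. TGACG is the core of the cAMP response element, and CACGTG is an E-box. The AP-1 motif was searched as TGANTCA in the same windows. CACCC, read as GGGTG on the printed strand, occurred 3 times in the Edn1 window, 2 times in Ptgs1, once in Ace and not at all in Ptgs2, and it occurred in 57.5% of 32851 mouse promoter windows of the same length. Edn1 also held an AGATAA match (11.2% of windows) and Ace a TATAAA match (13.6%). In Ptgs2 a TGACG match (20.8% of windows) and a CACGTG match (7.15%) overlapped, and none of the 4 windows held TGANTCA (7.81%). These are letters in a window and were not tested as sites.

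At 48 hr in untreated mice the constrictor gene Edn1 and the inducible cyclooxygenase Ptgs2 were higher under low flow than under high flow, and the constitutive cyclooxygenase Ptgs1 and Ace were lower. Levels are given as FPKM (deposited expected counts divided by effective gene length and library total), and differences as log2 fold-changes fitted by edgeR with TMM scaling. Total counts per pool ran from 4064477 to 6794904. Of the 8 members, 7 passed the filter on low counts and 4 were called at an adjusted p of 0.05, beside 46.2% of all 11236 genes tested. The median absolute log2 fold-change was 1.94 over the tested members and 0.63 over all genes. Low-flow pool c stood apart from pools a and b over all genes (chi-square per degree of freedom 109.9 and 94.4, beside 17.0 between a and b), and all 4 calls were kept without it.

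Edn1 stood at 209, 239 and 601 FPKM in low-flow pools a, b and c and at 93.0, 119 and 78.4 FPKM in the high-flow pools. The sham pools lay between, at 177, 153 and 147 FPKM, and no value of one group overlapped another. The fitted difference of low from high flow was 2.41 ± 0.30 log2 (SE, n = 3 pools per group; edgeR adjusted p = 0.000107), a 5.32-fold higher level. Without low-flow pool c it was 2.27. Against sham the difference was 1.74 ± 0.27 log2 (edgeR adjusted p = 0.00263).

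Ptgs2 was scarce where flow was high, at 0.763, 1.56 and 1.43 FPKM. In low-flow pools it reached 3.57, 9.52 and 18.2 FPKM, and in sham pools 1.90, 3.44 and 1.95 FPKM. All low-flow values lay above all others. The difference from high flow was 3.59 ± 0.40 log2 (12.01-fold; n = 3 pools per group; edgeR adjusted p = 4.78e-05), and from sham 2.70 ± 0.40 log2 (edgeR adjusted p = 0.00224).

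Ptgs1 moved the other way, so the 2 cyclooxygenase genes parted under low flow. It stood at 276, 249 and 289 FPKM under high flow, at 231, 329 and 187 FPKM in sham pools and at 19.0, 12.2 and 50.7 FPKM under low flow. The fitted level was 6.95-fold lower than under high flow (-2.80 ± 0.30 log2, n = 3 pools per group; edgeR adjusted p = 4.14e-05) and 6.17-fold lower than in sham (-2.63 ± 0.33 log2; edgeR adjusted p = 0.00146). In FPKM the mean Ptgs1 level was 271 ± 20.4 (SD, n = 3) under high flow beside 1.25 ± 0.428 (SD, n = 3) for Ptgs2, and 27.3 ± 20.5 beside 10.4 ± 7.34 under low flow.

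Ace followed Ptgs1. Its values were 19.96, 15.9 and 55.0 FPKM under low flow, 122, 208 and 173 FPKM under high flow and 188, 177 and 122 FPKM in sham pools. Low-flow values were below all others, and the difference was -1.94 ± 0.30 log2 from high flow (3.83-fold lower, n = 3 pools per group; edgeR adjusted p = 0.000466) and -1.85 ± 0.29 log2 from sham (edgeR adjusted p = 0.0027).

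The remaining members were not called. Ece1, among the more abundant members, read 224, 203 and 292 FPKM under low flow and 319, 376 and 325 FPKM under high flow, and Ptgis, which makes prostacyclin, 110, 240 and 315 FPKM beside 575, 412 and 426 FPKM. Both sets of FPKM were lower under low flow without overlap, but these values are scaled to total counts. TMM scaling raised the low-flow pools against their totals, so the Ece1 difference was 0.22 ± 0.34 log2 with TMM (edgeR adjusted p = 0.628) and -0.51 with library totals alone. Ptgis was called, at -1.09 log2 (edgeR adjusted p = 0.00304), with library totals alone, a scaling that put the median of all genes at -0.69 log2 in place of -0.07. Under that scaling the 4 called members kept their direction and their calls. Ednrb was near the limit of detection in pools a and b (5.94 and 3 expected counts, 0.23 and 0.178 FPKM) and reached 3.18 FPKM in pool c, against 0.69 to 1.04 FPKM under high flow. Nppc was at 0 in all 3 low-flow pools and at 1, 4 and 2 counts in the high-flow pools. It was not tested, and a count of 0 allows up to 3 counts.

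**Figure D1:**
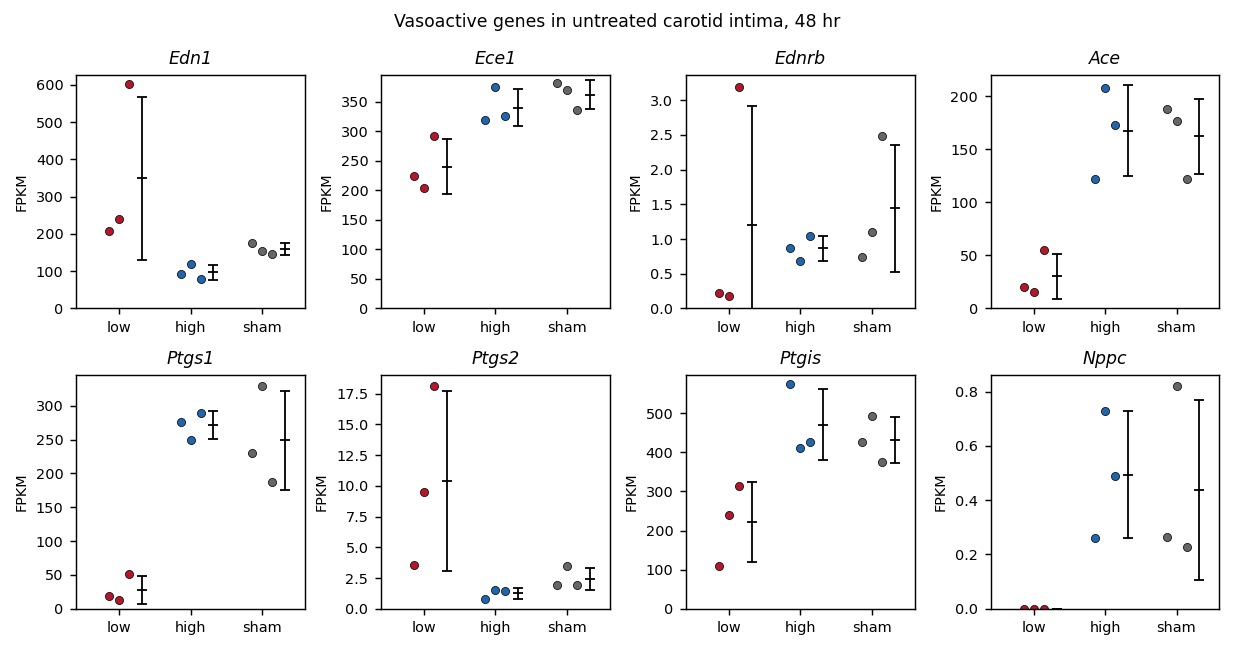
FPKM of the 8 members in each untreated pool at 48 hr, on linear axes from 0, for low flow, high flow and sham; the points are pools and the bar beside them is the mean ± SD (n = 3), cut at 0 where the SD is larger than the mean. Edn1 and Ptgs2 sit higher in the low-flow pools, while Ptgs1 (12.2 to 50.7 FPKM) and Ace (15.9 to 55.0 FPKM) sit below every high-flow and sham pool.

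Against sham the same 4 members were called, beside 40.3% of 11164 genes tested. Between high flow and sham edgeR called none of the 7 tested members and 0% of 11030 genes. Before adjustment 2 members and 868 genes had p under 0.05; DESeq2 called 0 members and 106 genes. These members were Edn1 (-0.66 ± 0.19 log2; edgeR adjusted p = 0.362) and Ptgs2 (-0.89 ± 0.34 log2; edgeR adjusted p = 0.526), both fitted lower under high flow than in sham, and the high-flow Edn1 and Ptgs2 pools all lay below the sham pools.

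A flush of the intima also carries RNA of other cells, and in such bulk RNA fewer cells of a type cannot be told apart from less RNA per cell. Summed FPKM of 10 endothelial markers was 2496 to 2943 in the low-flow pools and 4950 to 5125 in the high-flow pools, with no marker at 0, beside the lower Ptgs1 and Ace. That sum is scaled to total counts and weighted to abundant genes such as Pecam1 (573 to 839 FPKM beside 1601 to 2129), and of the 10 markers tested 3 were called lower and 2 higher, while Cdh5 overlapped (35.6 to 57.2 FPKM beside 42.6 to 68.1). Summed FPKM of 8 smooth muscle markers was 1445 to 2704 beside 322 to 384, carried by Acta2 (1190 to 1907 FPKM beside 188 to 213) and Tagln (247 to 761 FPKM beside 107 to 144). Myh11, the smooth muscle myosin, stayed at 0.105 to 1.11 FPKM under low flow and 0.909 to 2.01 FPKM under high flow. Macrophage markers (162 to 390 FPKM beside 29.9 to 59.6) and neutrophil markers (489 to 1198 FPKM beside 17.5 to 30.1) were higher beside the higher Edn1 and Ptgs2. Fat cell markers (5.74 to 14.2 FPKM beside 88.2 to 786) and fibroblast markers (22.2 to 158 FPKM beside 94.0 to 325) read lower beside the lower Ptgs1 and Ace, with 4 of 4 and 2 of 6 tested called lower, and the fibroblast sums overlapped. The part of these cells in the members' differences was not tested. In the 3 libraries of primary endothelial cells (Rbfox2 control, EC-KO and eGFP+) macrophage markers summed to 31.8, 1.49 and 22.8 FPKM, with 1, 7 and 7 of 10 at 0, and neutrophil markers to 0.0426, 0 and 0.0621 FPKM. Edn1 stood at 602, 607 and 432 FPKM and Ptgs2 at 43.3, 29.1 and 18.3 FPKM in the same order.

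Of 44 other genes of the same pathways, 17 passed the filter in low against high flow, of which 6 rose and 7 fell, beside 46.2% of all 11236 genes called. In the adrenomedullin pathway, a dilator peptide whose receptor pairs Calcrl with a Ramp protein, the receptor partner Ramp2 fell from 955 ± 180 to 164 ± 34.3 FPKM (SD, n = 3; -1.83 log2, edgeR adjusted p = 0.000465). Calcrl fell from 47.5 to 11.03 FPKM (-1.46 log2), and Ramp1 rose from 0.551 to 1.81 FPKM (2.29 log2). Among prostanoid genes, Ptges3, a prostaglandin E synthase that is also the co-chaperone p23, rose from 239 to 633 FPKM (2.28 log2). The prostaglandin transporter Slco2a1 fell from 34.1 to 13.5 FPKM (-0.71 log2) and the prostaglandin E2 receptor Ptger1 from 3.85 to 0.646 FPKM (-1.88 log2). The natriuretic peptide receptors Npr1 (20.03 to 7.32 FPKM, -0.95 log2) and Npr2 (5.67 to 1.84 FPKM, -1.05 log2) fell. In the endothelin pathway Ece2, a second converting enzyme, rose from 16.6 to 35.2 FPKM (1.71 log2), and Mme (neprilysin, which degrades peptides including endothelin) fell from 1.26 to 0.0286 FPKM (-4.61 log2). The low-flow Mme mean was smaller than its SD (0.0495 FPKM, n = 3), so the size of that fall is uncertain. Each of these 10 genes was called by edgeR with groups that did not overlap. Against sham the largest changes by the same rule, a list cut at 4 genes, were those of Mme, Ptges3, Ramp2 and Ptger1. There 4 pathway genes rose and 7 fell of 16 tested, beside 40.3% of all 11164 genes called. Between high flow and sham 0 of 14 tested pathway genes were called by edgeR, beside 0% of 11030 genes.

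The mice given IgG or PBS liposomes repeated the flow comparison in separate arteries, with total counts of 12286104 to 19035957 per library. The header lines of the deposited counts give the low-flow libraries one date-like prefix and the high-flow libraries another. Flow and that prefix cannot be told apart here. In IgG-treated mice 5 of 7 tested members were called, beside 40.5% of 13401 genes, and in mice given PBS liposomes 4 of 7, beside 35% of genes. Edn1, Ptgs2, Ptgs1 and Ace were called in both. DESeq2 called all 7 tested members with IgG and 5 with PBS liposomes. The 40.5% and 35% are edgeR shares, and the DESeq2 share over all genes is not given here. Marker sums differed between the flows here as well. With IgG they were 2559 to 2806 FPKM under low flow beside 5733 to 5921 under high flow for endothelial markers, 2672 to 2855 beside 266 to 410 for smooth muscle, 334 to 354 beside 25.0 to 65.5 for macrophage and 119 to 429 beside 3.80 to 26.4 for neutrophil markers. With PBS liposomes they were 2523 to 2736 beside 4582 to 5212, 1830 to 3622 beside 261 to 515, 167 to 250 beside 33.2 to 44.1 and 171 to 494 beside 5.58 to 5.89 FPKM in the same order. Fibroblast markers were lower under low flow, at 96.4 to 121 FPKM beside 179 to 231 FPKM with IgG (2 of 6 called) and 59.2 to 85.9 FPKM beside 124 to 155 FPKM with PBS liposomes (1 of 6). Platelet markers were 42.6 to 47.8 FPKM beside 14.1 to 19.0 FPKM with IgG, and overlapped with PBS liposomes. Fat cell markers were lower under low flow, at 10.2 to 95.1 FPKM beside 123 to 155 FPKM with IgG (1 of 5 tested called). With PBS liposomes they were 23.7 to 31.6 FPKM beside 55.6 to 79.2 FPKM (0 of 5 called). Their part in these calls was not tested.

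Edn1 read 693 and 479 FPKM in the low-flow IgG libraries and 74.6 and 118 FPKM in the high-flow ones (2.51 ± 0.52 log2, n = 2 libraries per group; edgeR adjusted p = 0.00408). With PBS liposomes it read 1224 and 432 FPKM beside 40.9 and 78.2 FPKM (3.92 ± 0.55 log2; edgeR adjusted p = 0.000744). Low-flow PBS library 1 held the highest Edn1 level of any carotid library in the fits, and without it the difference was 2.97 log2.

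Ptgs2 stood under low flow at 125 and 87.1 FPKM with IgG and 225 and 51.4 FPKM with PBS liposomes. The high-flow libraries held 3.01 and 2.48 FPKM with IgG, and 3.12 and 2.79 FPKM with PBS liposomes. The differences were 5.19 ± 1.02 log2 (n = 2 libraries per group; edgeR adjusted p = 0.0034) and 5.66 ± 1.04 log2 (edgeR adjusted p = 0.00261). The second was 4.22 log2 without low-flow PBS library 1 and 6.38 log2 without library 2. Untreated and treated libraries differ in read length and in how they were sequenced, so no test was made between them.

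Ptgs1 read 89.3 and 54.2 FPKM under low flow with IgG and 348 and 314 FPKM under high flow (4.90-fold lower, n = 2 libraries per group; edgeR adjusted p = 0.00219). With PBS liposomes it read 47.5 and 37.9 FPKM beside 295 and 288 FPKM (6.32-fold lower; edgeR adjusted p = 0.0012). Ace read 65.0 and 27.6 FPKM beside 428 and 458 FPKM with IgG, 10.2-fold lower (edgeR adjusted p = 0.00125), and 32.1 and 18.2 FPKM beside 213 and 121 FPKM with PBS liposomes, 6.15-fold lower (edgeR adjusted p = 0.00311). Without low-flow IgG library 1 the Ace difference with IgG was -4.07 log2, in place of -3.35. Neither gene's groups overlapped.

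Ece1 was called lower under low flow with IgG (285 and 254 FPKM beside 490 and 504 FPKM; -0.97 ± 0.34 log2, edgeR adjusted p = 0.0396). That call was lost without any 1 of the 4 libraries compared (edgeR adjusted p from 0.0978 to 0.182). With PBS liposomes Ece1 read 265 and 187 FPKM beside 494 and 353 FPKM (-0.80 ± 0.34 log2; edgeR adjusted p = 0.0854, DESeq2 0.034). Ptgis read 255 and 181 FPKM under low flow with IgG and 339 and 290 FPKM under high flow (-0.61 ± 0.24 log2; edgeR adjusted p = 0.0637, DESeq2 0.0326). Ednrb read 1.61 and 1.71 FPKM beside 0 and 0.463 FPKM (2.71 ± 1.13 log2; edgeR adjusted p = 0.075, DESeq2 0.0214), and without high-flow IgG library 2, which leaves only the library at 0, edgeR called it (adjusted p = 0.00979). With PBS liposomes Ptgis overlapped between flows (311 and 233 FPKM beside 314 and 291 FPKM), and Ednrb read 1.44 and 0.62 FPKM beside 0.417 and 0.317 FPKM. Nppc was at 0 in both low-flow IgG libraries and at 16 and 2 counts under high flow. The test of whether the flow difference itself changed between IgG and PBS liposomes called 0 of 7 members with edgeR (0% of 13401 genes; before adjustment 0 members and 801 genes had p under 0.05). DESeq2 called 0 members and 30 genes.

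Of the 44 other pathway genes, 33 were tested in these libraries. With IgG 10 rose and 9 fell, beside 40.5% of all 13401 genes called. With PBS liposomes 5 rose and 8 fell, beside 35% of all genes. Adm, the adrenomedullin precursor, rose in both, from 1.09 to 19.6 FPKM with IgG (4.10 log2; edgeR adjusted p = 0.013) and from 1.10 to 22.7 FPKM with PBS liposomes (4.47 log2; edgeR adjusted p = 0.0105). The prostaglandin E2 receptor Ptger2 was listed at 0 in all 4 high-flow libraries and at 0.673 FPKM under low flow with IgG (27 and 57 counts), at least 10.5-fold higher than the level of 3 counts per library, and at 0.529 FPKM with PBS liposomes, at least 8.92-fold higher. The prostaglandin D synthase Hpgds (0.415 FPKM) and the prostacyclin receptor Ptgir (0.356 FPKM) were at least 5.64-fold and 4.89-fold higher under low flow with IgG, against 0 counts. With PBS liposomes the thromboxane receptor Tbxa2r fell from 3.70 to 0.403 FPKM (-3.08 log2) and Mme from 1.33 to 0.0858 FPKM (-3.82 log2).

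**Figure D2:**
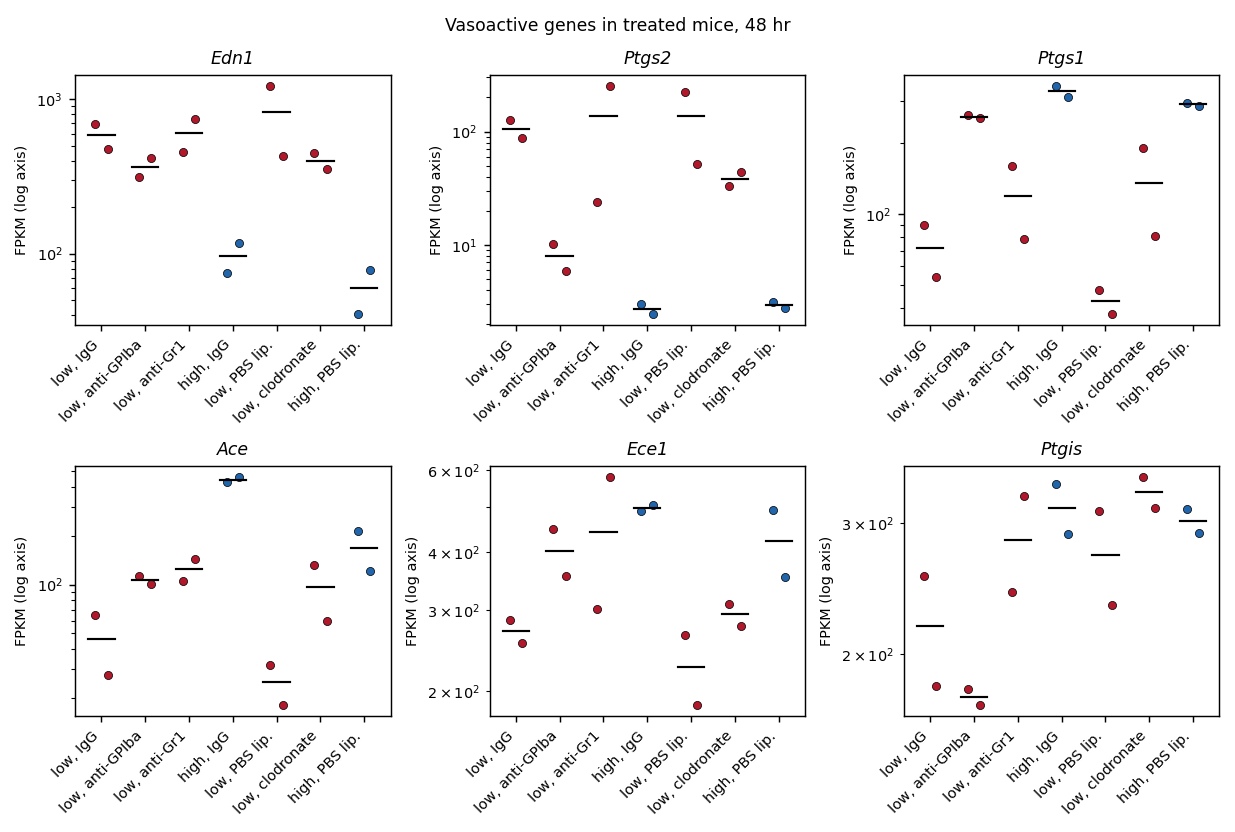
FPKM on log axes of 6 members in the 14 libraries of treated mice at 48 hr (2 per group; points are libraries, lines are group means; red low flow, blue high flow; lip., liposomes). In the anti-GPIba libraries Ptgs1 (263 and 254 FPKM) lies below the high-flow IgG libraries (348 and 314 FPKM) and above the low-flow ones, and Ptgs2 (10.3 and 5.82 FPKM) below every other low-flow library shown.

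The depletions asked whether the low-flow levels depend on the blood cells removed, and whether they differ from one another was not tested. With anti-GPIba against IgG, both under low flow, 2 of 7 tested members were called, beside 16.5% of 13401 genes, and these were the cyclooxygenases, each in the direction of the high-flow artery. Ptgs1 read 263 and 254 FPKM with anti-GPIba beside 89.3 and 54.2 FPKM with IgG (1.82 ± 0.40 log2, 3.54-fold higher, n = 2 libraries per group; edgeR adjusted p = 0.0243). Ptgs2 read 10.3 and 5.82 FPKM beside 125 and 87.1 FPKM (-3.75 ± 0.94 log2, 13.5-fold lower; edgeR adjusted p = 0.0313). The groups did not overlap for either gene, but both calls were lost without any 1 of the 4 libraries (edgeR adjusted p from 0.0511 to 0.194 for Ptgs1 and from 0.0659 to 0.161 for Ptgs2).

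Ace read 112 and 101 FPKM with anti-GPIba beside 65.0 and 27.6 FPKM with IgG (1.18 ± 0.48 log2) and was not called by edgeR (adjusted p = 0.0994), while DESeq2 called it (adjusted p = 0.0361). Edn1 stayed at 313 and 415 FPKM beside 693 and 479 FPKM, without overlap (edgeR adjusted p = 0.307). Ece1 read 448 and 355 FPKM, Ptgis 179 and 171 FPKM and Ednrb 0.194 and 0.873 FPKM with anti-GPIba, and none of these was called.

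Set against the high-flow IgG libraries, the anti-GPIba low-flow libraries had 2 of 7 members called, beside 7.7% of genes. These were Ace (-2.17 ± 0.49 log2; edgeR adjusted p = 0.0271) and Ptgis (-0.96 ± 0.25 log2; edgeR adjusted p = 0.039), both lower, and both calls were lost without any 1 of the 4 libraries (edgeR adjusted p from 0.0728 to 0.214 and from 0.0815 to 0.25). Edn1 was 1.80 ± 0.50 log2 higher with an edgeR adjusted p of 0.0509. It was called by DESeq2 (adjusted p = 0.00245) and by edgeR with RLE scaling (0.0483), with library totals (0.0394), without the filter on low counts (0.0288) and in a fit of these 2 groups alone (0.00468). Neither cyclooxygenase was called, which does not show that their levels matched those of high flow. Endothelial markers were 4309 to 4412 FPKM beside 5733 to 5921 FPKM (1 of 10 called higher and 2 lower). Macrophage markers were 92.0 to 103 FPKM beside 25.0 to 65.5 FPKM, and smooth muscle markers 424 to 598 FPKM beside 266 to 410 FPKM. Fibroblast markers summed to 247 to 506 FPKM beside 179 to 231 FPKM, though 2 of 6 were called lower. Other marker sums overlapped. The part of these cells in the calls was not tested.

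Markers of other cells also stood apart. Summed smooth muscle markers were 424 to 598 FPKM with anti-GPIba and 2672 to 2855 FPKM with IgG, macrophage markers 92.0 to 103 FPKM beside 334 to 354 FPKM, and neutrophil markers 5.58 to 15.8 FPKM beside 119 to 429 FPKM. Endothelial markers were 4309 to 4412 FPKM beside 2559 to 2806 FPKM. Platelet markers were 16.2 to 31.6 FPKM beside 42.6 to 47.8 FPKM, with Gp5 and Treml1 at 0 in both anti-GPIba libraries. Fibroblast markers were 247 to 506 FPKM beside 96.4 to 121 FPKM, and 1 of 6 was called higher. Their part in the 2 cyclooxygenase calls was not tested. Of 33 tested pathway genes 4 rose and 5 fell with anti-GPIba, beside 16.5% of all genes called. Ptgir fell from 0.356 to 0.00867 FPKM (-5.01 log2), a mean smaller than its SD (0.0123 FPKM, n = 2), so the size of that fall is uncertain. Ramp1 fell from 3.47 to 0.756 FPKM (-2.22 log2) and Hpgd, which inactivates prostaglandins, from 23.9 to 7.39 FPKM (-1.72 log2). Ptger2 was listed at 0 in both anti-GPIba libraries, at least 14.5-fold lower than with IgG. Against high-flow IgG 2 pathway genes rose and 4 fell, beside 7.7% of all genes called. Ptger1 (5.11 beside 19.7 FPKM, -2.06 log2), the peptidase Anpep (3.20 beside 11.2 FPKM, -1.92 log2) and Npr1 (9.38 beside 27.6 FPKM, -1.67 log2) were lower. Hpgds, at 0 under high flow, stood at 0.453 FPKM, at least 6.15-fold higher.

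With anti-Gr1 against IgG under low flow, edgeR called 0 of 7 members and 0% of genes. Before adjustment 2 members (Ece1 and Ace) and 2432 genes had p under 0.05; DESeq2 called 0 members and 179 genes. The Ace libraries read 105 and 144 FPKM beside 65.0 and 27.6 FPKM with IgG (1.46 ± 0.48 log2; edgeR adjusted p = 0.243), and Ece1 read 302 and 580 FPKM beside 285 and 254 FPKM (0.74 ± 0.33 log2; edgeR adjusted p = 0.272). The 2 anti-Gr1 libraries differed from each other in Ptgs2 (23.8 and 253 FPKM) and in Edn1 (456 and 749 FPKM), and summed smooth muscle markers differed in the same order (1098 and 3780 FPKM). Summed neutrophil markers were 23.9 to 43.2 FPKM in these libraries.

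Against high-flow IgG the anti-Gr1 libraries had 4 of 7 members called, beside 13.1% of genes, and these were the 4 of the untreated comparison. Edn1 was 5.99-fold higher (2.58 ± 0.52 log2; edgeR adjusted p = 0.0117), Ptgs2 49.5-fold higher (5.63 ± 1.04 log2; edgeR adjusted p = 0.00901), Ptgs1 2.95-fold lower (-1.56 ± 0.40 log2; edgeR adjusted p = 0.0275) and Ace 3.71-fold lower (-1.89 ± 0.49 log2; edgeR adjusted p = 0.0289). Ednrb read 1.48 and 2.87 FPKM beside 0 and 0.463 FPKM (3.13 ± 1.14 log2; edgeR adjusted p = 0.0903, or 0.0192 without high-flow library 2; DESeq2 0.0157). The calls were sensitive to single libraries. Ace was lost without any 1 of the 4 (edgeR adjusted p from 0.0586 to 0.138). Edn1 was lost without high-flow IgG library 1 (0.0932 by edgeR), Ptgs2 without high-flow library 1 or 2 (0.0701 and 0.0528 by edgeR), and Ptgs1 without high-flow library 1 or 2 or anti-Gr1 library 2 (0.105, 0.0689 and 0.122 by edgeR). With only these 2 groups in the edgeR fit Ptgs2 (adjusted p = 0.0531) and Ptgs1 (0.0658) were not called. The size of the Ptgs2 difference rested on anti-Gr1 library 2: it was 3.00 log2 without it and 6.51 log2 without library 1. Markers of other cells stood apart here too. Macrophage markers were 275 to 485 FPKM with anti-Gr1 beside 25.0 to 65.5 FPKM (8 of 10 called higher), smooth muscle markers 1098 to 3780 FPKM beside 266 to 410 FPKM (2 of 8 higher) and endothelial markers 3134 to 3543 FPKM beside 5733 to 5921 FPKM (4 of 10 lower). Platelet markers were 43.9 to 66.0 FPKM beside 14.1 to 19.0 FPKM (1 of 7 higher). Fat cell markers were 65.3 to 90.9 FPKM beside 123 to 155 FPKM (0 of 5 tested called). The part of these cells in the 4 calls was not tested. Of 33 pathway genes 6 rose and 6 fell, beside the 13.1% of all genes called. Adm rose from 1.09 to 13.5 FPKM (3.61 log2), and Ptgir, Hpgds and Ptger2, at 0 under high flow, stood at 0.602, 0.612 and 0.273 FPKM, at least 8.27-fold, 8.31-fold and 4.26-fold higher.

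With clodronate against PBS liposomes under low flow edgeR called 0 of 7 members, beside 0.119% of genes (16 genes), while before adjustment 4 members and 2002 genes had p under 0.05. Ace read 133 and 59.6 FPKM beside 32.1 and 18.2 FPKM (1.82 ± 0.48 log2; edgeR adjusted p = 0.165) and Ptgs1 190 and 80.5 FPKM beside 47.5 and 37.9 FPKM (1.55 ± 0.40 log2; edgeR adjusted p = 0.152). DESeq2 called these 2 members, and 467 genes in all. Without clodronate library 2 edgeR called them too (adjusted p = 0.0354 for Ace and 0.0317 for Ptgs1). Ptgs2 read 33.0 and 43.8 FPKM beside 225 and 51.4 FPKM (-1.96 ± 0.87 log2; edgeR adjusted p = 0.328), and Edn1 449 and 353 FPKM beside 1224 and 432 FPKM (-1.16 ± 0.49 log2; edgeR adjusted p = 0.312). The low-flow groups overlapped in Edn1 and not in Ptgs2. Ece1 (309 and 277 FPKM), Ptgis (346 and 315 FPKM) and Ednrb (0.791 and 0.508 FPKM) were not called. Summed macrophage markers were 33.4 to 53.5 FPKM with clodronate and 167 to 250 FPKM with PBS liposomes, and endothelial markers 3331 to 4318 FPKM beside 2523 to 2736 FPKM. Neutrophil markers (52.1 and 70.1 FPKM beside 171 and 494 FPKM) and smooth muscle markers (1490 and 1627 FPKM beside 3622 and 1830 FPKM) were lower without overlap, beside the lower Ptgs2 readings. Their part in these readings was not tested.

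Against high-flow PBS libraries the clodronate libraries had 2 of 7 members called, beside 7.41% of genes. Edn1 was 6.77-fold higher (2.76 ± 0.52 log2; edgeR adjusted p = 0.0115) and Ptgs2 13.1-fold higher (3.71 ± 0.95 log2; edgeR adjusted p = 0.0379). The Edn1 call was lost without high-flow PBS library 1 (0.157 by edgeR) and the Ptgs2 call without high-flow library 1 or 2 or clodronate library 2 (0.266, 0.133 and 0.148 by edgeR). With only these 2 groups in the edgeR fit neither gene was called (adjusted p = 0.0992 for Edn1 and 0.0887 for Ptgs2). Smooth muscle markers were 1490 to 1627 FPKM with clodronate beside 261 to 515 FPKM (1 of 8 called higher), neutrophil markers 52.1 to 70.1 FPKM beside 5.58 to 5.89 FPKM (1 of 6 tested called higher) and endothelial markers 3331 to 4318 FPKM beside 4582 to 5212 FPKM (1 of 10 called higher and 1 lower). Macrophage, fibroblast and platelet markers overlapped. Their part in the calls was not tested. Ptgs1 was at -1.11 ± 0.39 log2 (edgeR adjusted p = 0.105) and was called without clodronate library 1 (-1.82 log2; edgeR adjusted p = 0.0166). DESeq2 called it with all libraries (-1.11 log2, adjusted p = 0.0415). Of 33 pathway genes 1 was called, beside the 7.41% of all genes. That gene was Calcrl, which fell from 119 to 36.4 FPKM (-1.70 log2). The comparisons of treated low-flow libraries share the IgG, PBS and high-flow controls, so they do not stand apart from each other. In the single pools sequenced separately, clodronate beside PBS liposomes gave 110 beside 43.6 FPKM for Ace (ratio 2.53, 95% counting interval 2.36 to 2.71), 59.0 beside 36.4 FPKM for Ptgs1 (1.62, 1.46 to 1.81) and 11.6 beside 46.5 FPKM for Ptgs2 (0.25, 0.218 to 0.286), with no replicate behind either value.

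**Figure D3:**
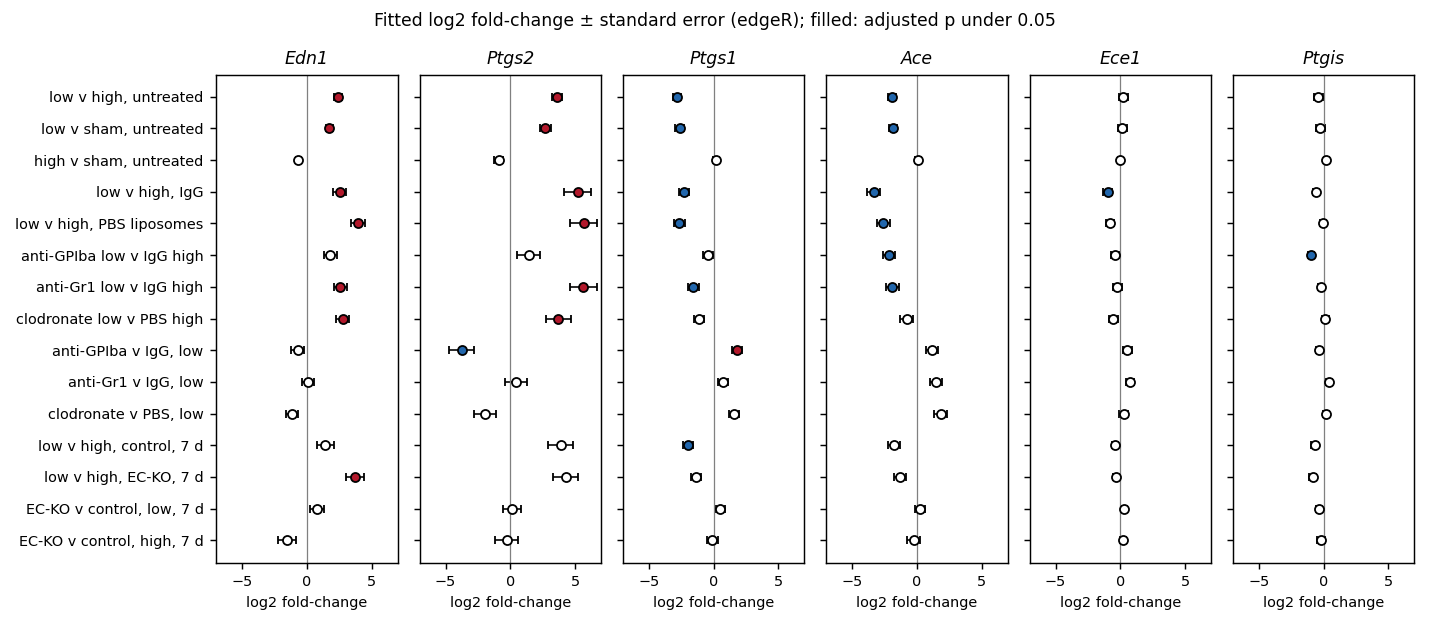
Fitted log2 fold-change ± SE (edgeR) of 6 members in 15 comparisons; filled points have an adjusted p under 0.05 (red higher, blue lower in the first-named group), and comparisons that name the same control group share its libraries. Edn1 and Ptgs2 lie right of 0 and Ptgs1 and Ace left of 0 in each of the 5 low against high comparisons with the same treatment (or none) and genotype on both sides, called or not.

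At 7 days Edn1 and Ptgs2 again read higher, and Ptgs1 and Ace lower, in every low-flow library than in the high-flow libraries of the same genotype, with 1 member called in each genotype. Total counts were 10318685 to 18633538 per library. Rbfox2 itself was at 2.74 to 5.73 FPKM in the 5 control libraries and 0.169 to 1.09 FPKM in the 5 EC-KO libraries. By the header lines the low-flow libraries carry 3 prefixes and the high-flow libraries 1 of these. Low-flow control 5 and low-flow EC-KO library 4 are repeat runs and share a prefix that no other library carries. Low-flow control library 1 stood apart from controls 4 and 5 over all genes (chi-square per degree of freedom 255 and 198, beside 64.6 between those 2).

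In controls, low against high flow, 1 of 7 tested members was called, beside 2.4% of 13352 genes. Ptgs1 read 123, 40.2 and 52.1 FPKM in low-flow controls 1, 4 and 5, below the 264 and 259 FPKM of the high-flow controls (-1.97 ± 0.41 log2, n = 3 and 2 libraries; edgeR adjusted p = 0.0426). The call was lost without either high-flow control or without low-flow control 4 or 5 (0.188, 0.297, 0.0833 and 0.1 by edgeR). It was also lost with only these 2 groups in the edgeR fit (adjusted p = 0.216) and with library totals without TMM (edgeR adjusted p = 0.0511). Ptgs2 read 25.9, 133 and 146 FPKM beside 8.32 and 4.84 FPKM (3.88 ± 0.95 log2; edgeR adjusted p = 0.0573), and Ace 174, 42.8 and 75.7 FPKM beside 284 and 344 FPKM (-1.79 ± 0.45 log2; edgeR adjusted p = 0.0594). Low-flow control 1 lay nearest to high flow in Ptgs2, Ptgs1 and Ace. Without it 3 members were called: Ptgs1 at -2.57 log2 (edgeR adjusted p = 0.000442), Ace at -2.47 log2 (0.000542) and Ptgs2 at 4.34 log2 (0.00368). The share of all genes called in that fit is not given here. With all libraries DESeq2 called Ptgs2 (adjusted p = 1.0e-05), Ace (0.00173), Ptgs1 (0.000136) and Ednrb (0.0387). With the replicate number as a block edgeR called Ptgs2 (adjusted p = 0.00241) and Ace (0.00564) as well as Ptgs1. Edn1 read 125, 157 and 371 FPKM beside 77.3 and 78.9 FPKM, without overlap (edgeR adjusted p = 0.205). Ptgis read 155, 229 and 216 FPKM beside 273 and 337 FPKM (-0.70 ± 0.27 log2; edgeR adjusted p = 0.152). Ednrb was at 0 in both high-flow controls and at 0.888, 0.325 and 0.0509 FPKM in low-flow controls 1, 4 and 5, which is 56, 17 and 2 counts.

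In Rbfox2 EC-KO mice 1 of 7 members was called between low and high flow, beside 1.09% of genes. Edn1 read 209, 686 and 186 FPKM in low-flow EC-KO libraries 1, 4 and 5 and 29.1 and 26.8 FPKM in the high-flow ones (3.70 ± 0.72 log2, 13.0-fold higher, n = 3 and 2 libraries; edgeR adjusted p = 0.0459). That call was lost without any 1 of the 5 libraries (edgeR adjusted p from 0.0728 to 0.37), and without low-flow EC-KO library 4 the difference was 2.79 log2. Ptgs2 read 41.4, 225 and 57.3 FPKM beside 6.29 and 5.02 FPKM (4.27 ± 0.97 log2; edgeR adjusted p = 0.0719), Ptgs1 131, 77.3 and 90.4 FPKM beside 253 and 252 FPKM (-1.35 ± 0.41 log2; edgeR adjusted p = 0.15), Ace 115, 98.3 and 119 FPKM beside 293 and 256 FPKM (-1.32 ± 0.45 log2; edgeR adjusted p = 0.192) and Ptgis 162, 114 and 191 FPKM beside 237 and 310 FPKM (-0.83 ± 0.27 log2; edgeR adjusted p = 0.184). None of these groups overlapped. DESeq2 called Ptgs2 (adjusted p = 1.1e-06) and Ptgs1 (0.0279) besides Edn1, and not Ace (0.0537). With edgeR fitted to these 2 groups alone Ptgs2, Ptgs1 and Ace were called as well (adjusted p = 0.026, 0.0186 and 0.00578). They were also called by edgeR with the replicate number as a block (adjusted p = 0.00299, 0.0039 and 0.025). Ednrb held 20, 33 and 0 counts beside 1 and 19 counts. Within the 1 header prefix that both flows share, low-flow control 4 held 157 FPKM of Edn1 beside the 77.3 and 78.9 FPKM of the high-flow controls. Low-flow EC-KO library 5 held 186 FPKM beside 29.1 and 26.8 FPKM.

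The genotype comparisons asked whether loss of endothelial Rbfox2 changed the members. Under low flow edgeR called 0 of 7 members and 0% of genes (before adjustment 0 members and 880 genes had p under 0.05). DESeq2 called 0 members and 16 genes. Same-numbered libraries deviated together here, so the fit was repeated with the replicate number as a block. It called 0 members and 0 genes, with 1479 genes and 1 member at p under 0.05 before adjustment. That member was Ptgs1, higher in EC-KO in each of the 3 same-numbered sets (131 beside 123, 77.3 beside 40.2 and 90.4 beside 52.1 FPKM; 0.64 ± 0.19 log2, edgeR unadjusted p = 0.00951, edgeR adjusted p = 0.444). No label says what libraries of equal number share. Without low-flow control 1, edgeR called Ace at 0.90 log2 (adjusted p = 0.0482) and Ptgs1 at 1.12 log2 (adjusted p = 0.0235), both higher in EC-KO. That leaves EC-KO library 1 without its same-numbered control. Without both low-flow libraries numbered 1 Ace was not called (edgeR adjusted p = 0.11) and Ptgs1 stood at 0.87 log2 (edgeR adjusted p = 0.0499). Under high flow edgeR called 0 of 7 members, beside 0.00749% of genes, where before adjustment 0 members and 293 genes had p under 0.05. DESeq2 called 0 members and 29 genes. The high-flow Edn1 libraries did not overlap (29.1 and 26.8 FPKM in EC-KO, 77.3 and 78.9 FPKM in controls; edgeR unadjusted p = 0.0501). The test of whether the flow difference changed with genotype called 0 of 7 members and 0% of genes. Before adjustment 1 member and 538 genes had p under 0.05 by edgeR. DESeq2 called 0 members and 21 genes. That member was Edn1, at 2.29 ± 0.88 log2 (edgeR adjusted p = 0.986).

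Summed endothelial markers were 2370 to 3794 FPKM in low-flow controls, 3093 to 3343 FPKM in low-flow EC-KO libraries and 5553 to 5847 FPKM in the 4 high-flow libraries. Smooth muscle markers were 722 to 1086, 640 to 1026 and 138 to 193 FPKM in the same order. Macrophage markers were 195, 417 and 50.4 FPKM in low-flow controls 1, 4 and 5, 446 to 661 FPKM in low-flow EC-KO libraries and 13.0 to 41.5 FPKM under high flow. Neutrophil markers were 14.4, 212 and 12.9 FPKM in the low-flow controls, where Ptgs2 stood at 25.9, 133 and 146 FPKM, 4.35 to 14.9 FPKM in low-flow EC-KO libraries, where Ptgs2 stood at 41.4 to 225 FPKM, and 2.09 to 17.0 FPKM under high flow. Fibroblast markers were 439, 206 and 130 FPKM in low-flow controls 1, 4 and 5, 147 to 160 FPKM in the high-flow controls, 500, 1621 and 487 FPKM in low-flow EC-KO libraries 1, 4 and 5 and 94.99 to 148 FPKM in the high-flow ones, where 1 of 6 was called higher under low flow. EC-KO library 4, with the 1621 FPKM, also held the highest Edn1 (686 FPKM) and Ptgs2 (225 FPKM) of the 7-day libraries. The part of these cells in the member readings was not tested. Of 30 tested pathway genes 1 rose and 2 fell in each genotype, beside 2.4% of all genes called in controls and 1.09% in EC-KO. Pla2g4a, the phospholipase that releases arachidonic acid for both cyclooxygenases, rose from 27.8 to 81.3 FPKM in controls (1.47 log2; edgeR adjusted p = 0.027) and from 23.8 to 63.8 FPKM in EC-KO (1.40 log2; edgeR adjusted p = 0.0334). Ramp2 fell from 1567 to 347 FPKM (-2.27 log2) and from 1695 to 399 FPKM (-2.10 log2), and Ptger1 from 19.8 to 6.94 FPKM (-1.60 log2) and from 23.4 to 6.78 FPKM (-1.79 log2).

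**Figure D4:**
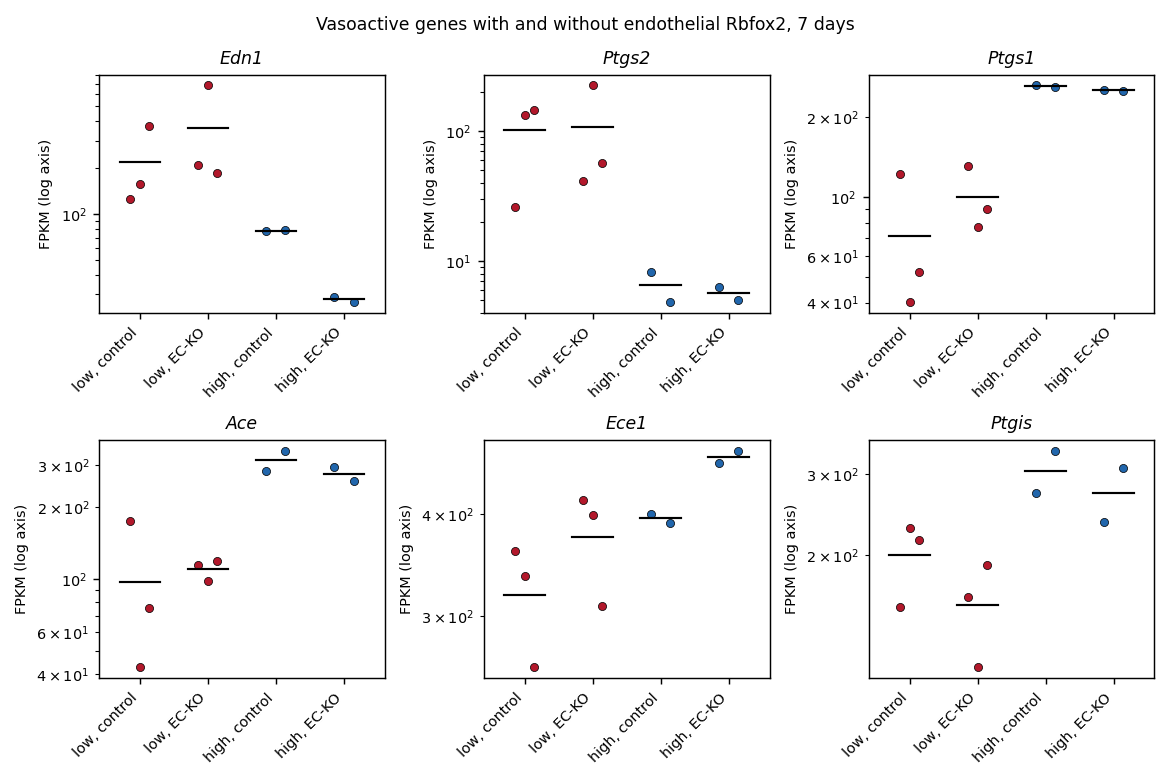
FPKM on log axes of 6 members in the 10 libraries at 7 days (points are libraries, lines are group means; red low flow with n = 3, blue high flow with n = 2 per genotype). Ptgs2 lies at 25.9 to 225 FPKM in the low-flow libraries and 4.84 to 8.32 FPKM in the high-flow ones, and Edn1 in the high-flow EC-KO libraries (29.1 and 26.8 FPKM) lies below every other library shown.

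The order of levels over the 14 carotid groups is a description only, since the untreated pools were read at 100 bp and the others at 150 bp. Mean Edn1 ran from 828 FPKM (low flow, PBS liposomes) to 27.9 FPKM (high flow, EC-KO at 7 days), and of the 13 neighbouring pairs in that order 10 overlapped in their ranges. Its 3 breaks lay between low-flow IgG and low-flow clodronate, between sham and untreated high flow, and between high-flow PBS liposomes and high-flow EC-KO. Ptgs2 ran from 138 FPKM (low flow, PBS liposomes) to 1.25 FPKM (untreated high flow), Ptgs1 from 331 FPKM (high flow, IgG) to 27.3 FPKM (untreated low flow) and Ace from 443 FPKM (high flow, IgG) to 25.1 FPKM (low flow, PBS liposomes). Ece1 ran only from 497 to 226 FPKM and Ptgis from 471 to 156 FPKM, with 12 of 13 neighbouring pairs overlapping in each. Ednrb stayed between 2.17 and 0 FPKM, and Nppc was under 1 FPKM in every group. Across the 33 carotid libraries in the fits, Ptgs1 was most like Fhl1, Gria3 and 4933407C03Rik (Pearson r = 0.982, 0.981 and 0.977 of log2(FPKM + 1)) and Ace most like Adamts10, Ntn1 and Mknk2 (0.975, 0.961 and 0.959). Ptgs2 was most like Errfi1, Ccrn4l and Fam107b (0.929, 0.927 and 0.918), and Edn1 most like Tgif1, Acta2 and Tagln (0.876, 0.858 and 0.843). Ece1 was most like 4931406P16Rik, Thbd and 2900026A02Rik (0.880, 0.879 and 0.872) and Ptgis like Anxa3, Cd40 and Kif1c (0.827, 0.815 and 0.802). These libraries share flow groups, treatments and read lengths, so genes that differ with flow resemble each other for that alone.

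In culture, each condition was 1 library, so no test was made, and intervals cover counting error only. In the immortalized line plasma was followed by a lower Edn1 and Ace and a higher Ptgs1. The line carries its endothelial label weakly: the 10 endothelial markers summed to 127 to 178 FPKM over its 4 libraries, with none at 0, beside 2625 and 2904 FPKM in the control and EC-KO primary cells.

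Edn1 read 69.4 FPKM in the line left alone, 13.95 FPKM with plasma, 26.04 FPKM with platelets and macrophages, and 9.20 FPKM with all. With all added it was 7.54-fold lower than in the line alone (ratio 0.133, 95% counting interval 0.118 to 0.149), and 3.38% of genes compared were at least 4-fold lower. Ace read 5.29, 1.27, 3.45 and 1.02 FPKM in the same order. Ptgs1 read 3.76, 58.0, 12.7 and 185 FPKM, which is 15.4-fold higher with plasma (13.1 to 18.3) and 49.2-fold higher with all (41.9 to 58.2). Ptgs2 read 1.36, 3.04, 14.2 and 34.4 FPKM and was 10.4-fold higher with platelets and macrophages (8.24 to 13.2) and 25.3-fold higher with all (20.2 to 31.97). Of all genes compared, 1.37% were at least 8-fold higher with all added.

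The cyclooxygenases thus differed in which addition gave the larger single value: plasma for Ptgs1, platelets and macrophages for Ptgs2. Both were higher still with all 3 added, Ptgs1 3.19-fold above plasma (3.04 to 3.34) and Ptgs2 2.43-fold above platelets and macrophages (2.24 to 2.64). Ece1 stayed at 14.2 to 20.4 FPKM and Ptgis at 119 to 155 FPKM. Ednrb held 2, 3, 0 and 32 counts, and Nppc 1, 0, 4 and 3 counts. Added cells leave RNA of their own; platelets are known to carry Ptgs1, and activated macrophages to make Ptgs2. Summed macrophage markers were 15.9, 44.6, 53.8 and 84.8 FPKM and platelet markers 2.27, 4.61, 15.8 and 24.0 FPKM in the same order. Fibroblast markers were 257, 119, 198 and 80.6 FPKM and smooth muscle markers 371, 134, 261 and 272 FPKM in that order. The part of any of these markers' cells in the member levels was not tested.

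Primary aortic cells held Edn1 at 602 FPKM (Rbfox2 control) and 607 FPKM (EC-KO), a ratio of 1.01 (95% counting interval 0.987 to 1.03), with Rbfox2 at 9.33 and 0.675 FPKM. Ece1 (246 and 256 FPKM), Ptgis (176 and 162 FPKM), Ace (37.8 and 35.2 FPKM) and Ptgs1 (11.7 and 12.6 FPKM) were likewise close in the 2 libraries, and Ptgs2 was 43.3 and 29.1 FPKM (ratio 0.673, 0.627 to 0.721). Ednrb differed more, with 8 counts in the control and 111 in EC-KO (0.144 and 2.94 FPKM; ratio 20.3, 9.97 to 48.3), where 0.127% of genes compared were at least 8-fold higher. Summed macrophage markers were 31.8 FPKM in the control library (1 of 10 at 0) and 1.49 FPKM in EC-KO (7 of 10 at 0), fibroblast markers 33.6 and 98.6 FPKM and smooth muscle markers 3485 and 2771 FPKM. Their part in the Ptgs2 and Ednrb readings was not tested. The eGFP+ cells held 561 counts of Ednrb (29.5 FPKM), together with Edn1 at 432 FPKM, Ece1 at 128 FPKM, Ptgis at 240 FPKM, Ptgs2 at 18.3 FPKM, Ptgs1 at 14 FPKM and Ace at 5.33 FPKM. Nppc was at 0 in all 3 primary libraries. In these cells Acta2 was at 2576 FPKM (control), 1850 FPKM (EC-KO) and 1180 FPKM (eGFP+), beside Cdh5 at 68.3, 71.4 and 63.3 FPKM.

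**Figure D5:**
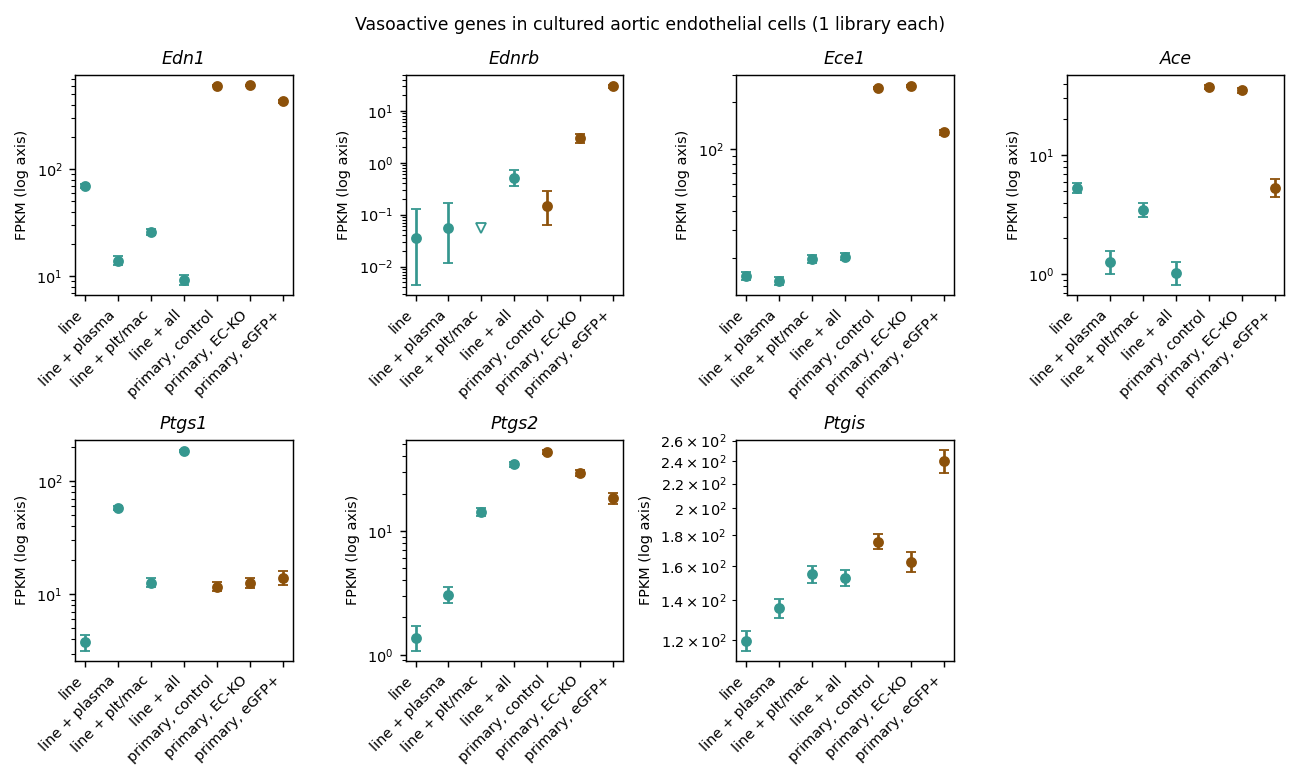
FPKM on log axes of 7 members in the 7 culture libraries, 1 library each (plt/mac, platelets and macrophages; all, plasma with platelets and macrophages); bars are 95% counting intervals, and the open triangle marks the level of 3 counts where none were seen. Ptgs1 and Ptgs2 lie highest in the line with all added (185 and 34.4 FPKM among its 4 libraries), while Edn1 lies lowest there (9.20 FPKM).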

How the data were processed

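Paired-end polyA RNA-seq libraries (SMARTer Universal Low Input kit) were read from the RSEM table. Per the labels the authors aligned to mm9 with STAR 2.5.1b and estimated with RSEM 1.2.15. The deposited expected counts need not be whole (5.195% to 19.323% of all values per library, zeros included, were not), and were rounded here. Of 21675 entries 1 named no gene. Of 204 value columns 42 were mapped to samples and 162 (other runs, trimmed reads and other units) were not used. Low-flow control library 5 and low-flow EC-KO library 4 were read from repeat runs, since their first runs had few counts. FPKM was computed as counts per effective length and library total. Main tests used edgeR 4.0.16 (quasi-likelihood, filterByExpr, TMM, Benjamini-Hochberg over all genes, threshold 0.05) in R 4.3.3: untreated groups in pairs, the 7 treated groups together, the 4 groups at 7 days together. SEs were taken from the F statistic. The scripts were tested on simulated data. DESeq2 1.42.0, other scalings, filters, sample sets, replicate blocks and omission of each library were alternatives. At 7 days libraries numbered 1, 4 and 5 of the low-flow genotypes deviated together (correlations 0.489, 0.17 and 0.272), so the fit with the replicate number as a block stands there beside the unblocked main fit. Single libraries got exact 95% counting intervals. Members, pathway lists, motifs and tests were chosen with earlier results of these data known; pathway genes were named where called without overlap of groups, largest change first, at most 12 for low against high flow and 4 elsewhere, and likeness by Pearson correlation. Promoters came from RefSeq tables.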

Additional observations from a re-analysis of the deposited data

How the results depend on the processing

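Ednrb and Nppc rested on few counts (0 to 172 and 0 to 16 per carotid library in the fits), and whether depth or the spread between 2 or 3 libraries limited the calls was not tested. Between low and high flow or sham in untreated mice, 4 members were called whichever single library was left out. Library totals without TMM, an alternative added after the data were seen, called 5 in each and turned Ece1 in low against high flow to -0.51 log2; over all genes the split was then 1044 higher and 3084 lower, in place of 2652 and 2543, and against sham 642 and 2716 in place of 2304 and 2195.

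Leaving out 1 library in turn gave 4 to 5 called members for low against high flow with IgG, 0 to 0 for anti-GPIba against IgG, 0 to 2 for clodronate against PBS liposomes, 0 to 0, 0 to 3 and 0 to 3 for anti-GPIba, anti-Gr1 and clodronate against high flow, 0 to 3 and 0 to 0 for low against high flow at 7 days in controls and EC-KO, and 0 to 2 for EC-KO against control under low flow; where 1 library was left in a group, it was assumed to vary like the others. Leaving out both low-flow libraries numbered 1 gave 3, 4 and 1 called members in these 3 comparisons at 7 days, so that EC-KO ranged from 0 to 4. Shares over all genes are not given for the fits with libraries left out, so these member counts have no background beside them.

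DESeq2 called 2 members for clodronate against PBS liposomes, 4 in controls at 7 days and 3 in EC-KO. Fitting only the 2 groups compared gave 4, 2 and 0 for anti-GPIba, anti-Gr1 and clodronate against high flow, and 0 and 4 at 7 days in controls and EC-KO. Without a filter on low counts these last were 3 and 2; library totals without TMM gave 0 in controls and RLE scaling 0 in EC-KO. The causes were not tested.

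The replicate block called 3 members in controls (Ptgs1, Ptgs2 and Ace) and 4 in EC-KO (these and Edn1) for low against high flow at 7 days, where numbers were only shared (correlations of -0.0322 to 0.221), in place of 1 each. In treated mice (-0.155 to 0.443) the replicate block added Ace for anti-GPIba against IgG (1.27 log2, edgeR adjusted p = 0.0429) and Ptgs1 for clodronate against high flow (-1.20 log2, edgeR adjusted p = 0.0291). It changed no other member's call. Untreated pools carry letters, and no paired analysis was possible there.

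Over all genes, counts moved by over 1.5 times with DESeq2 for clodronate against PBS liposomes (467 in place of 16), anti-GPIba, anti-Gr1 and clodronate against high flow (2198, 2883 and 1992 in place of 1032, 1753 and 993), anti-GPIba against IgG (3688 in place of 2216) and at 7 days (2224 and 965 in place of 320 and 146). Fitting only the groups compared gave 2003, 267 and 0 for these 3 against high flow, 4449 for anti-GPIba against IgG, 225 for anti-Gr1 against IgG (in place of 0), 0 for clodronate against PBS liposomes, and 3 and 858 at 7 days. Without the filter there were 63 genes for high flow against sham (in place of 0), 92 for clodronate against PBS liposomes, and 654 and 221 at 7 days. The replicate block gave 64 for clodronate against PBS liposomes, 2940 and 1317 at 7 days and 4 for genotype under high flow (in place of 1), and library totals 6 and 0 for these first and last. Of the mean FPKM values, 13 moved by more than 1 SD when totals were TMM-scaled and 99 did not.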
